A study of Homo sapiens with 6 samples.

Results

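This account covers 39 genes of the reactive astrocyte state, of chemokine and cytokine signalling, and of complement, out of 27439 genes with reads. They were chosen by name as reactive astrocyte markers, chemokines, targets of NF-kB and STAT3, and complement components. The list was drawn up with earlier results of these data known, but no expression threshold set it. The cells were astrocytes made from H1, an established human embryonic stem cell line, in 2 groups: 3 libraries with a forebrain regional character, called Control, and 3 libraries with a ventral midbrain character. The labels give no cytokine, no injury and no other agent for either group, so the values describe both kinds of astrocyte as cultured. The study derives from 1 line. One label field names the cell type as embryonic stem cells, while the titles and the source name astrocytes. In both groups the libraries are numbered 2, 3 and 4.

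Astrocytes answer injury and inflammation by changing their transcription, which is called reactivity. NF-kB, switched on by interleukin 1 and tumour necrosis factor, drives chemokines and adhesion molecules, and it also drives its own inhibitors. STAT3 is switched on by interleukin 6 family cytokines through the shared receptor subunit gp130, and it drives acute phase genes and its inhibitor SOCS3. Complement is a cascade of proteases: the C1 complex starts the classical pathway, C3 lies where the pathways meet, and astrocytes are among the brain's sources of several of its components.

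RNA was sequenced from its 3' end, and the libraries held from 11617935 to 15391082 reads. Levels are given in CPM, reads scaled to library size, and because reads come from 3' ends a level is not divided by gene length. Across genes a level therefore compares reads, with no length correction. Of 10 astrocyte markers all 10 were tested. AQP4 and SLC1A3 were higher in ventral midbrain astrocytes, and with the replicate block described below GJA1, SOX9 and CD44 were lower. Their summed level was 1473 to 1923 CPM in Control and 979.9 to 1756 CPM in ventral midbrain libraries. Microglia and macrophage markers were near 0: none of 11 had enough reads for a test, their sum was at most 0.907 CPM in any library, and AIF1, P2RY12, C1QA and C1QB had no read. Mesenchymal and fibroblast markers summed to 1072 to 1703 CPM in Control against 499.5 to 602 CPM in ventral midbrain libraries. COL1A1 held the largest share of the sum, at a mean of 910.2 CPM in Control and 276.9 CPM in ventral midbrain libraries. Of these 11 markers 5 fell (COL1A1, COL3A1, PDGFRA, PRRX1 and FOXC1), and 6 were lower with the block. DCN and LUM were 4.45 and 5.33 times higher at low levels without passing either fit, and PDGFRB and ACTA2 overlapped between the groups. Endothelial markers summed to 16.8 to 20.4 CPM against 8.64 to 13.8 CPM, and neuronal markers to 1257 to 1993 CPM against 710.4 to 1186 CPM, with none of either list past the test (DESeq2 called 0 endothelial and 3 neuronal markers, and 2 and 3 had an unadjusted p under 0.05) and 4 neuronal markers lower with the block. Choroid plexus and ependymal markers summed to 6.81 to 20.04 CPM against 59.5 to 91.1 CPM, none past the test, 2 by DESeq2 and 2 higher with the block. The 2 were FOXJ1, at a mean of 10.2 CPM in Control and 62.4 CPM in ventral midbrain libraries, and DNAH9, both genes of motile cilia. The choroid plexus markers did not share this: TTR was at 0, and FOLR1 and CLIC6 had 19 and 26 reads in all, with lower means in ventral midbrain libraries. Over all 15984 genes tested, 2.15% were called by the test, 4.69% by DESeq2 and 8.13% with the block, and 1919 had an unadjusted p under 0.05. The part of these other cell types in the results was not tested. In bulk RNA, fewer cells of a type and less RNA per cell cannot be told apart.

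The comparison of ventral midbrain with Control astrocytes asked whether regional character came with a different level of reactive and inflammatory genes. One member rose, the chemokine CXCL2, and 1 member fell, the complement protease C1R. Of the 39 members 33 had enough reads for a test, and 2 of 33 (6.06%) passed an adjusted p of 0.05 (edgeR quasi-likelihood test, Benjamini-Hochberg adjustment over 15984 genes), beside 2.15% of all genes tested (1.06% higher and 1.09% lower). DESeq2 called 7 members, beside 4.69% of all genes, and limma voom called 1, beside 1.64%. An unadjusted p under 0.05 was found for 13 of the 33 members, and for 1919 of the 15984 genes tested. Same-numbered libraries of the 2 groups deviated together from their group means, so a fit with the library number as a block was also made. With the replicate block 5 members were higher (CXCL2, CCL2, CX3CL1, GBP2 and PTX3) and 7 lower (C1R, C1S, HSPB1, CHI3L1, CHI3L2, AMIGO2 and CD109), or 36.4% of those tested beside 8.13% of all genes (3.63% higher and 4.50% lower). For 13 of the 33 members the 2 groups did not overlap, 6 higher and 7 lower in ventral midbrain astrocytes, beside 17.9% of all genes (9.17% higher and 8.75% lower). Of the 33 members 16 had a positive and 17 a negative log2 fold change, with a median of -0.002 against 0.014 over all genes tested. The labels do not state whether libraries within a group are separate cultures. The spread that each p-value is set against is therefore that of these 6 libraries and may be technical. In ventral midbrain astrocytes the mesenchymal, neuronal and endothelial marker sums were each lower than in any Control library. The choroid plexus and ependymal sum, mostly FOXJ1, was higher than in any. The part of these cell types in the 5 higher and 7 lower members was not tested.

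**Figure D1:**
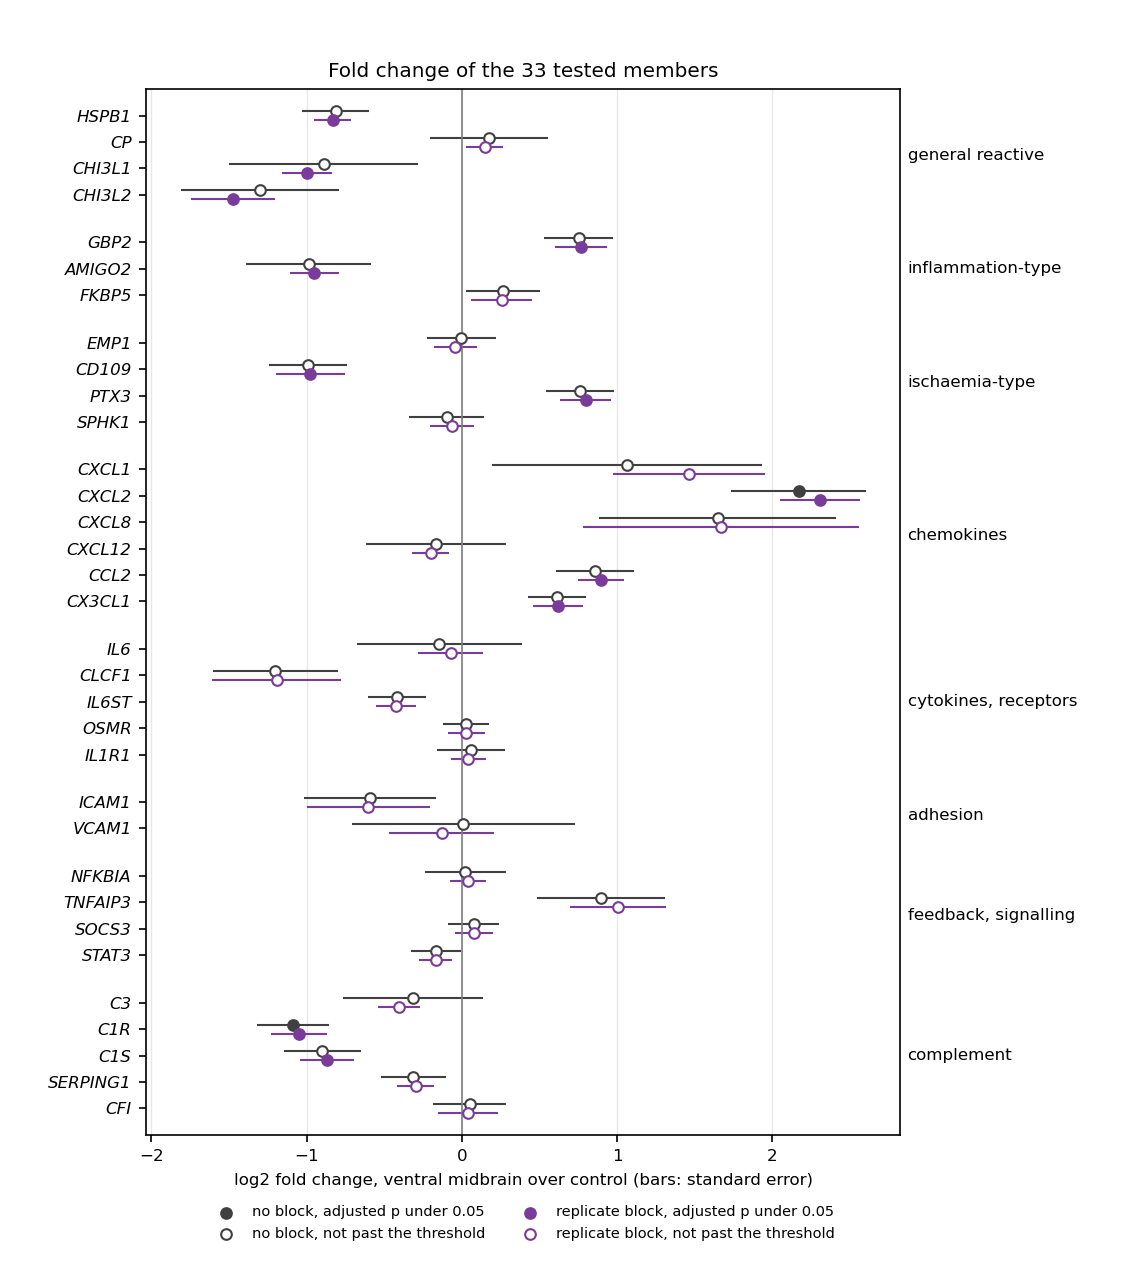
Log2 fold change of each tested member, ventral midbrain over Control, with bars of 1 standard error, ordered by role, from the fit without the block and the fit with it. Filled points passed an adjusted p of 0.05. CXCL2 lies farthest to the right at 2.17, and C1R is the filled point on the left without the block.

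Among the 6 chemokines of the list that were tested, which draw leukocytes along a gradient, CXCL2 had the largest log2 fold change. CXCL2 (ENSG00000081041, GRCh38 chr4:74097035-74099293, minus strand) attracts neutrophils through the receptor CXCR2. It stood at 9.58, 3.51 and 3.03 CPM in Control libraries 2, 3 and 4, and at 30.4, 19.2 and 23.2 CPM in ventral midbrain libraries 2, 3 and 4. The groups did not overlap, and Control library 2 was the highest of its group. CXCL2 was 4.52-fold higher in ventral midbrain astrocytes, with a log2 fold change of 2.17 ± 0.43 (SE; adjusted p = 0.0415, edgeR; 9.35e-05 with the replicate block), and was higher in 3 of 3 same-numbered pairs, by 1.65, 2.40 and 2.88 in log2 CPM for numbers 2, 3 and 4. The call depended on single libraries: it held without Control library 2 (adjusted p = 0.00469) and was lost without any 1 of the other 5 (adjusted p up to 0.135). With a gene-length offset, which reads from 3' ends do not call for, the adjusted p was 0.0626.

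Its close paralog CXCL1, which binds the same receptor, stood at 4.83, 0.68 and 0.53 CPM in Control and 7.67, 3.06 and 2.01 CPM in ventral midbrain libraries. The ranges overlapped, and the log2 fold change was 1.07 ± 0.87 (adjusted p = 0.731; 0.093 with the replicate block). Without Control library 2 it was 2.80, and without ventral midbrain library 2 it was 0.31. CXCL8, the neutrophil attractant also called interleukin 8, was near the limit of counting at 0.37, 0.26 and 0.53 CPM against 1.17, 0.94 and 1.58 CPM. Its ranges did not overlap, but it did not pass the test (adjusted p = 0.431). Reads from CXCL1 and CXCL2, which are alike in sequence, may have been divided between them by the transcript estimates.

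The 3 genes have the same 9 bases upstream of their start, which are printed here because their chemokine products act on shared receptors and their mean levels all lay on the higher side. The sequences are RefSeq promoter windows (GRCh38.p14), from 250 bases before to 50 after the gene start, 5′ to 3′ on the gene's strand, with the match to GGAANTTCC, a form of the NF-kB site, in capitals. The window of CXCL1 is chr4:73869143-73869442 on the plus strand, that of CXCL2 chr4:74099146-74099445 on the minus strand, and that of CXCL8 chr4:73740319-73740618 on the plus strand.
CXCL1: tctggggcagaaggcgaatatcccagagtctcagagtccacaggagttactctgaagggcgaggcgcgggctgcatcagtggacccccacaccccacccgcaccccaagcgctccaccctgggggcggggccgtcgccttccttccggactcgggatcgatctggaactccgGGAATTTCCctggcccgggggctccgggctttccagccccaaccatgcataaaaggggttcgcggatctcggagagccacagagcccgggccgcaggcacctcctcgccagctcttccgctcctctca
CXCL2: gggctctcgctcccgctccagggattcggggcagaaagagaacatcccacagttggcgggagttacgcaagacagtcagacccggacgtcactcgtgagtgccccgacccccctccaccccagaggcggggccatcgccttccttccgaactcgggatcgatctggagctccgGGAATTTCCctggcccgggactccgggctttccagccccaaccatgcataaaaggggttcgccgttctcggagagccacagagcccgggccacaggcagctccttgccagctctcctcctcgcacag
CXCL8: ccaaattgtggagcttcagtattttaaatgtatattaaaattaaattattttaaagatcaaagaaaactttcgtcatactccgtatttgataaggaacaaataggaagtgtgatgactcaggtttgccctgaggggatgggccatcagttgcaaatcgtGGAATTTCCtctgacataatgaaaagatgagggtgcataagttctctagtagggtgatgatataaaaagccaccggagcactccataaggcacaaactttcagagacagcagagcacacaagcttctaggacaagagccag
The match began 78 bases before the start in CXCL1, 77 in CXCL2 and 91 in CXCL8. The motif is its own reverse complement, so 1 search covers both strands. It was chosen after the values were seen. It was found in 339 of 35116 windows of this length (0.965%) and in 6 of the 40 windows of the 30 members that had one, each of a different member. The other 3 were CXCL10, which was not tested, and ICAM1 and NFKBIA, which did not pass the test. Mean CPM in Control and ventral midbrain libraries was 0.285 and 0.095 for CXCL10 and 5.93 and 3.95 for ICAM1. For NFKBIA it was 155.0 and 157.4. Members with the motif thus lay on both sides, and of the 3 printed genes only CXCL2 passed the test. The list was picked partly as NF-kB targets, so a share of windows above that of all genes may follow from the choice of members. A match describes the letters of the window and is not evidence of binding.

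CCL2, which attracts monocytes to sites of inflammation, was read at a higher level than the CXC chemokines named so far. It measured 133.7, 66.7 and 89.2 CPM in Control and 208.7, 173.7 and 143.4 CPM in ventral midbrain libraries. The lowest ventral midbrain library was above the highest Control library. The log2 fold change of 0.86 ± 0.25 did not pass the test (adjusted p = 0.149) and passed with the replicate block (adjusted p = 0.00187). CX3CL1, a membrane-bound chemokine that signals to microglia in the brain, gave 17.8, 19.2 and 23.3 CPM in Control and 28.8, 31.1 and 32.4 CPM in ventral midbrain libraries. These groups too lay apart, with a log2 fold change of 0.61 ± 0.19 (adjusted p = 0.157; 0.0316 with the block).

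CXCL12, the ligand of CXCR4 and the most abundant chemokine of the list, showed no such separation. It stood at 1216, 512 and 897 CPM in Control and at 1026, 384 and 933 CPM in ventral midbrain libraries. The ranges overlapped from 512 to 1026 CPM, and the log2 fold change was -0.16 ± 0.45 (adjusted p = 0.947). CXCL10, an interferon-induced chemokine, had 15 reads in the 6 libraries together and was not tested. Of the 6 chemokines tested, 5 had a positive log2 fold change, and the median was 0.96. Over all genes tested 51.7% were positive, with a median of 0.014.

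**Figure D2:**
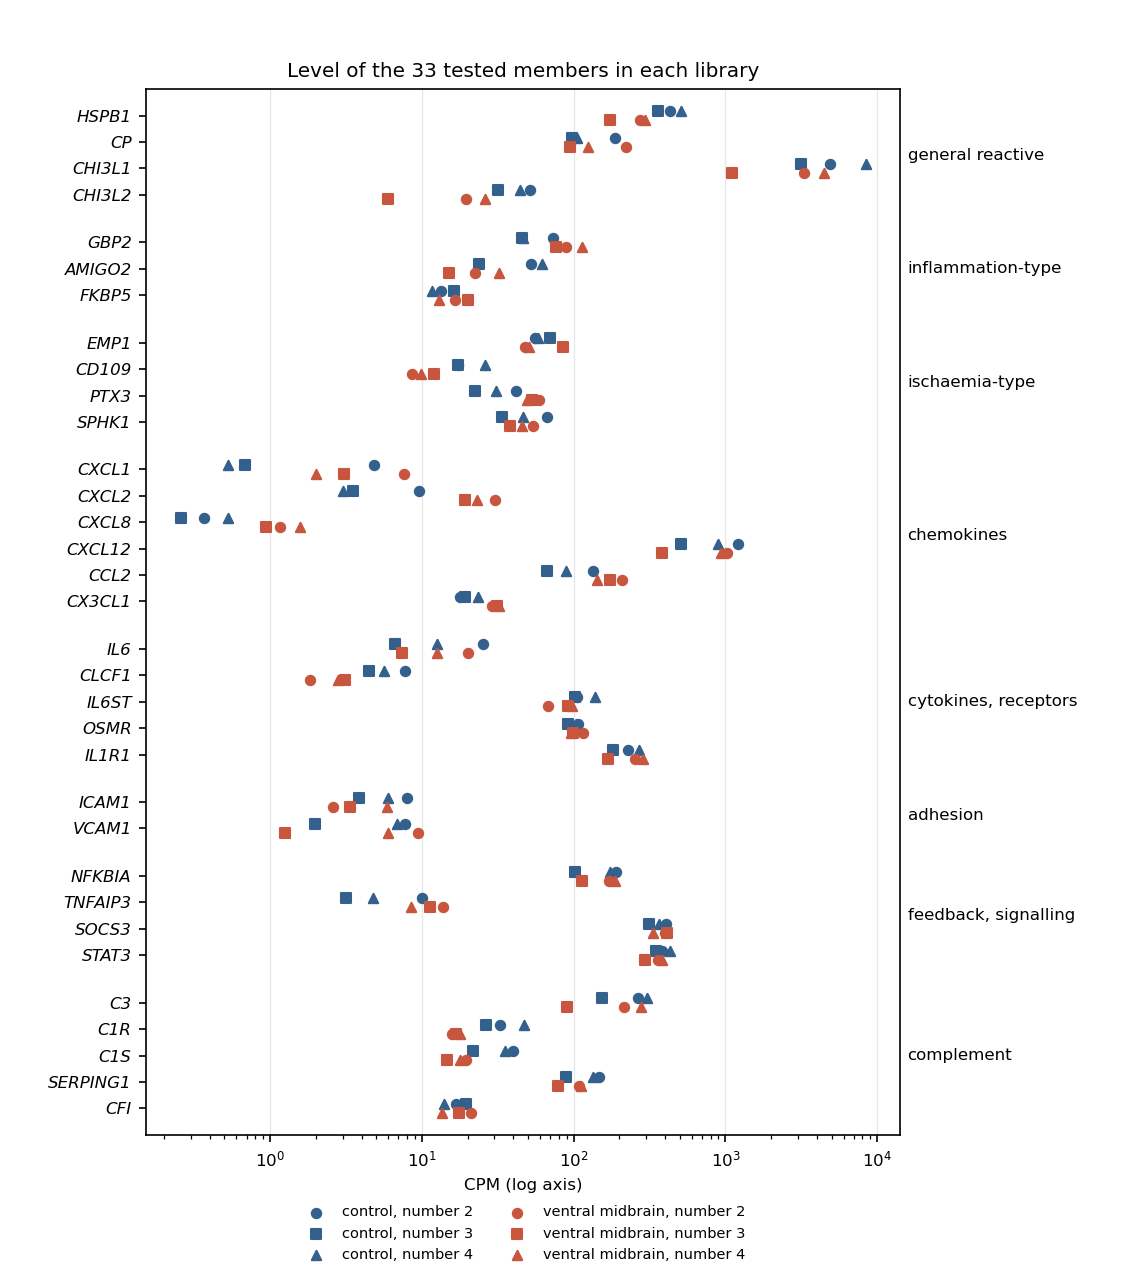
Level of each of the 33 tested members in each library, in CPM on a log axis, with colour for the group, symbol shape for the library number and members ordered by role. CHI3L1 is the highest at 1097 to 8403 CPM and CXCL8 the lowest at 0.26 to 1.58 CPM.

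None of the 5 cytokines and receptors was called by edgeR with or without the block or by DESeq2, and 2 had an unadjusted p under 0.05. Interleukin 6 itself, IL6, ranged from 6.67 to 25.1 CPM in Control and from 7.37 to 20.2 CPM in ventral midbrain libraries (adjusted p = 0.965). CLCF1, another ligand of the gp130 family, was lower in ventral midbrain astrocytes without overlap, at 7.75, 4.45 and 5.60 CPM against 1.82, 3.14 and 2.79 CPM. Its log2 fold change of -1.20 ± 0.40 did not pass the test (adjusted p = 0.212; 0.106 with the block). CLCF1 overlaps RAD9A on the opposite strand, which held 418 reads against 339. IL6ST, which encodes gp130, also had groups apart, at 101 to 137 CPM in Control and 67.5 to 97.8 CPM in ventral midbrain libraries, and did not pass (adjusted p = 0.412; 0.0638 with the block).

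OSMR, the receptor subunit for oncostatin M, stood at 107, 91.6 and 104 CPM in Control and 115, 98.5 and 96.2 CPM in ventral midbrain libraries. IL1R1, the receptor that carries interleukin 1 signals to NF-kB, gave 229, 182 and 269 CPM against 252, 169 and 288 CPM. Their log2 fold changes were small, at 0.03 ± 0.15 for OSMR and 0.06 ± 0.22 for IL1R1, and their ranges overlapped. Both were read well above the counting floor in every library.

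The adhesion molecules that cytokines induce were low in both groups. ICAM1, which binds leukocyte integrins, gave 7.97, 3.85 and 5.97 CPM in Control and 2.60, 3.37 and 5.87 CPM in ventral midbrain libraries. VCAM1, which also binds integrins, gave 7.68, 1.97 and 6.81 CPM against 9.36, 1.25 and 5.94 CPM. Both overlapped between groups and did not pass the test (adjusted p = 0.68 for ICAM1 and 0.998 for VCAM1).

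SOCS3, STAT3 and NFKBIA were read at 102 to 430 CPM across libraries, while TNFAIP3 was low. SOCS3, the feedback inhibitor of gp130 signalling, stood at 409, 312 and 363 CPM in Control and 398, 412 and 334 CPM in ventral midbrain libraries. STAT3, the transcription factor, stood at 379, 351 and 430 CPM against 359, 296 and 380 CPM. The log2 fold change was 0.08 ± 0.16 for SOCS3 and -0.17 ± 0.16 for STAT3, with overlapping groups. NFKBIA, the inhibitor that holds NF-kB in the cytoplasm and is itself a target of it, ranged from 102 to 190 CPM in Control and from 114 to 187 CPM in ventral midbrain libraries, with a log2 fold change of 0.02 ± 0.26. TNFAIP3, a ubiquitin-editing inhibitor of NF-kB, stood at 3.17 to 10.1 CPM against 8.52 to 13.8 CPM, and was higher in 3 of 3 pairs without passing either fit (adjusted p = 0.424; 0.066 with the block).

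Among the 5 complement members, the largest log2 fold changes were those of the 2 proteases of the C1 complex, of which C1R passed the test. C1R (GRCh38 chr12:7080199-7092607), the protease that activates C1s, stood at 32.8, 26.4 and 47.4 CPM in Control and at 15.7, 16.7 and 17.8 CPM in ventral midbrain libraries. The ventral midbrain libraries lay close together and all below Control. C1R fell by 1.08 on the log2 scale (SE 0.23; adjusted p = 0.0415, edgeR; 0.00236 with the block), to 0.471 of its Control level. This call held without Control library 3 (adjusted p = 0.0275) and was lost without any 1 of the other 5 libraries (adjusted p up to 0.16). It was not called by limma voom (adjusted p = 0.0671) or on the deposited normalized values (0.121). Nor was it called with a gene-length offset (0.106), which reads from 3' ends do not call for.

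C1S, the protease that C1r activates and that cleaves C4 and C2, stood at 40.1, 21.7 and 35.2 CPM in Control and 19.5, 14.7 and 17.8 CPM in ventral midbrain libraries. The groups did not overlap, and the log2 fold change was -0.90 ± 0.25 (adjusted p = 0.106; 0.00598 with the block). C1R and C1S are neighbours on chromosome 12. C1R overlaps C1RL on the same strand, which held 4855 reads against 2088 for C1R, and C1S overlaps EMG1 and LPCAT3, so their reads could be divided among these genes. The mesenchymal marker sum, at 499.5 to 602 CPM against 1072 to 1703 CPM in Control, was lower alongside C1R and C1S. So were the neuronal sum, at 710.4 to 1186 against 1257 to 1993 CPM, and the endothelial sum, at 8.64 to 13.8 against 16.8 to 20.4 CPM. The part of these cell types in the difference of C1R and C1S was not tested.

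A C1R window, the 1 of its 2 that holds the motif, is printed because C1R is the complement member past the test, with TTCNNNGAA, the motif STAT factors bind, in capitals (RefSeq, GRCh38.p14, chr12:7091844-7092143, minus strand, 5′ to 3′ from 250 bases before to 50 after the gene start).
C1R: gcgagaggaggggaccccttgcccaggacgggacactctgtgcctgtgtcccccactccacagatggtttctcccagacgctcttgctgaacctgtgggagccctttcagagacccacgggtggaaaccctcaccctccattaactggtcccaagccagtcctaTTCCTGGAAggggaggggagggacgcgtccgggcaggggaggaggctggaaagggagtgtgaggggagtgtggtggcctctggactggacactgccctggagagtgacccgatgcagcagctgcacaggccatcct
The match began 86 bases before the start. The list was picked partly as STAT3 targets, so a raised share among members may follow from that choice. This motif is also its own reverse complement and was chosen after the values were seen. It is common: 2689 of 35116 windows held it (7.66%), and 9 of the 40 windows of members did. These belonged to 8 members, some with several windows (C1R, CD14, CHI3L2, EMP1, ICAM1, IL1R1, SPHK1 and STEAP4). Of these 8 only C1R passed the test. The log2 fold change was -1.30 for CHI3L2, -0.59 for ICAM1, -0.10 for SPHK1, -0.002 for EMP1 and 0.06 for IL1R1. CD14 and STEAP4 were not tested, and SOCS3 was not among the members with the motif. A match is not evidence of binding, and no bases beyond these windows were searched.

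The later and regulatory complement members did not pass. C3, the central component, gave 265, 154 and 302 CPM in Control and 214, 89.9 and 276 CPM in ventral midbrain libraries. SERPING1, the inhibitor of C1r and C1s, gave 146, 89.3 and 134 CPM against 108, 78.6 and 111 CPM. Both were lower in each same-numbered pair, yet their groups overlapped (adjusted p = 0.884 for C3 and 0.653 for SERPING1; 0.0948 and 0.164 with the block). C3 overlaps GPR108 on the same strand, which held 2015 reads against 17729. CFI, which degrades C3b, ranged from 14.1 to 19.5 CPM in Control and from 13.5 to 21.1 CPM in ventral midbrain libraries. Of the 5 complement members, 4 had a negative log2 fold change, with a median of -0.31. The share of positive values over all genes tested was 51.7%, with a median of 0.014.

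Among general reactive markers, the most abundant member was CHI3L1, a secreted chitinase-like protein used as a marker of reactive astrocytes. It stood at 4868, 3131 and 8403 CPM in Control and at 3294, 1097 and 4470 CPM in ventral midbrain libraries. The libraries of one group differed by more than the groups did, and Control library 3 was below ventral midbrain libraries 2 and 4. The log2 fold change of -0.89 ± 0.61 did not pass (adjusted p = 0.683) and passed with the block (adjusted p = 0.00349), and CHI3L1 was lower in each of 3 pairs. Its relative CHI3L2 gave 51.6, 31.5 and 44.2 CPM against 19.5, 5.96 and 26.1 CPM, without overlap (adjusted p = 0.376; 0.0105 with the block).

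HSPB1, a small heat shock protein, stood at 429, 358 and 513 CPM in Control and at 272, 175 and 294 CPM in ventral midbrain libraries. The groups lay apart, and the log2 fold change of -0.81 ± 0.22 did not pass (adjusted p = 0.0978; 0.000467 with the block). CP, which encodes the copper-carrying ferroxidase ceruloplasmin, ranged from 97.1 to 188 CPM in Control and from 95.0 to 222 CPM in ventral midbrain libraries (adjusted p = 0.929). LCN2, a siderophore-binding protein and a classical marker of strong reactivity, had no read in any library, and STEAP4, a metalloreductase, had 19 reads in all. A count of 0 allows up to 3 reads, or 0.195 to 0.257 CPM depending on the library, for counting error only.

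SERPINA3, a protease inhibitor that is among the most used human markers of reactive astrocytes, had 3 reads in its own transcripts across the 6 libraries. At the same place the annotation (GENCODE v29) has AL049839.2 (ENSG00000273259, GRCh38 chr14:94592058-94624646, plus strand), a gene model that holds 5 of 5 exons of the transcript SERPINA3-202 and ends 591 bases past it. This model held 1910 reads, at 49.9, 25.4 and 26.5 CPM in Control and 18.9, 11.1 and 10.7 CPM in ventral midbrain libraries. All 3 ventral midbrain libraries were below all Control libraries. With both models summed the log2 fold change was -1.31 ± 0.32 (adjusted p = 0.0777; 0.000285 with the block), an alternative added after seeing the data. Because the exons are shared, the near absence of reads on SERPINA3 itself cannot be told apart from reads given to the longer model.

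**Figure D3:**
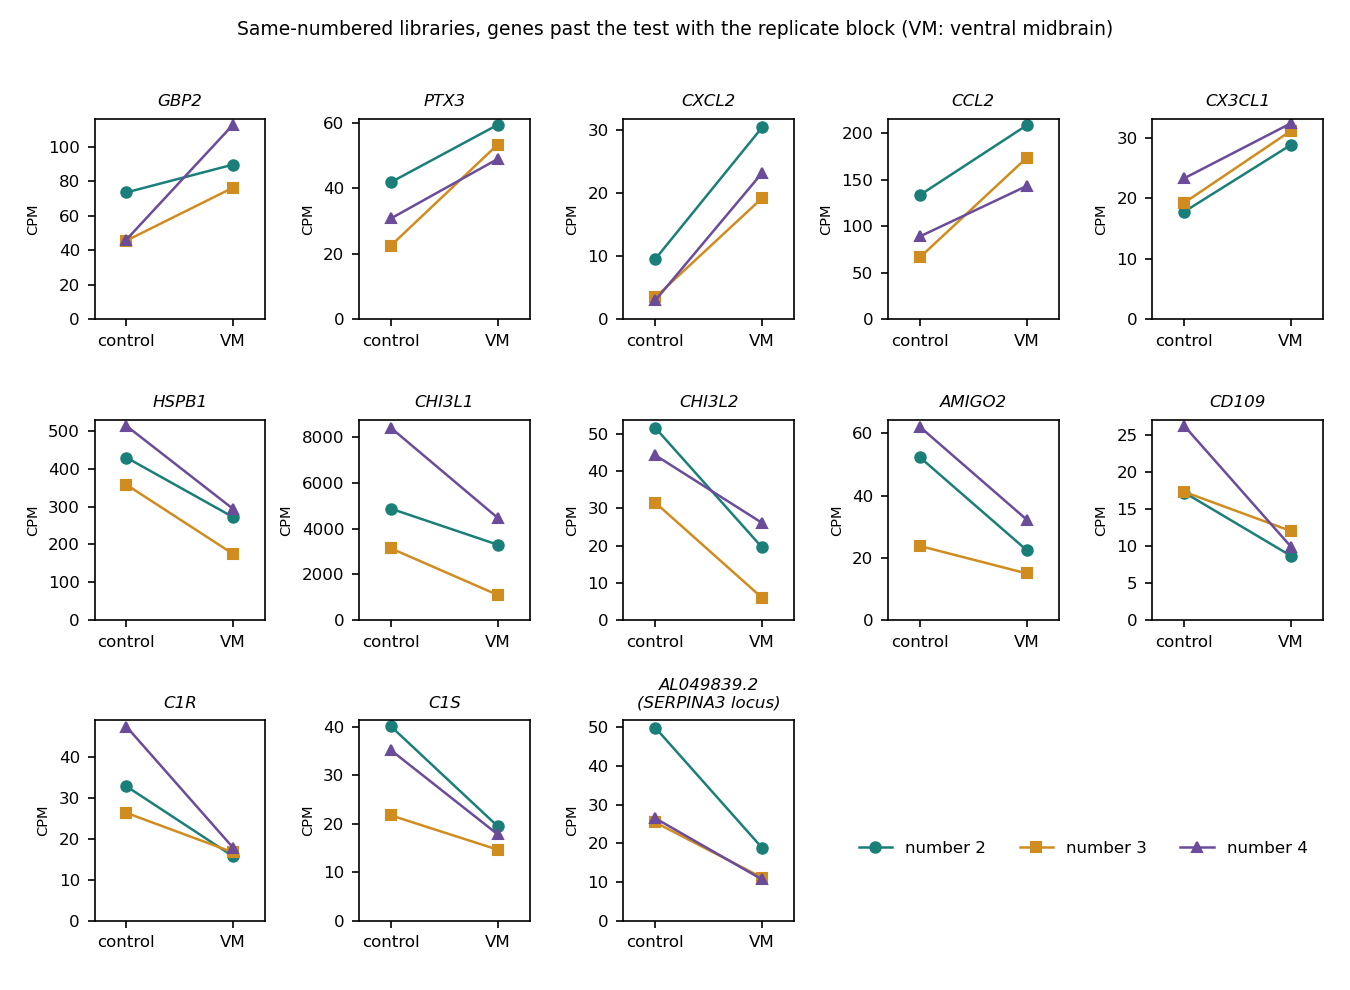
CPM in Control and ventral midbrain (VM) libraries for the 12 members called with the replicate block and for AL049839.2 at the SERPINA3 locus, with a line joining each same-numbered pair and the vertical axis from 0. The 3 lines slope the same way in every panel, upward for 5 members and downward for 7. Choosing the members by the block fit favours such panels.

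Reactive markers once linked to inflammation, often called A1, had members on both sides. GBP2, an interferon-induced GTPase, gave 73.5, 45.6 and 46.2 CPM in Control and 89.6, 76.3 and 112.8 CPM in ventral midbrain libraries. AMIGO2, a cell adhesion protein, gave 52.3, 23.8 and 62.1 CPM against 22.5, 15.0 and 32.3 CPM. GBP2 had groups apart on the higher side (log2 fold change 0.75 ± 0.22; adjusted p = 0.143; 0.0137 with the block), while AMIGO2 was lower in 3 of 3 pairs with overlapping groups (-0.99 ± 0.40; adjusted p = 0.388; 0.00172 with the block). FKBP5, a glucocorticoid-induced chaperone partner, ranged from 11.6 to 16.2 CPM in Control and from 13.03 to 19.99 CPM in ventral midbrain libraries (adjusted p = 0.762).

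Of the 4 tested members placed under ischaemia, often called A2, 1 had a positive and 3 a negative log2 fold change. Over all genes tested 51.7% were positive. Genes of the A2 set placed under other roles or in the wider list are not counted here, such as S100A10, which was lower. PTX3, a secreted pattern recognition protein that binds C1q, gave 41.8, 22.5 and 30.8 CPM in Control and 59.3, 53.3 and 48.9 CPM in ventral midbrain libraries. CD109, a membrane protein that binds transforming growth factor beta, gave 17.2, 17.3 and 26.2 CPM against 8.65, 12 and 9.88 CPM. Both had groups apart, in opposite directions: the log2 fold change was 0.76 ± 0.22 for PTX3 (adjusted p = 0.131; 0.00686 with the block) and -0.99 ± 0.25 for CD109 (adjusted p = 0.077; 0.0131 with the block). EMP1, a membrane protein of the epithelial membrane protein family, gave 55.3, 70.3 and 58.2 CPM in Control and 48.0, 84.6 and 51.1 CPM in ventral midbrain libraries. SPHK1, the kinase that makes sphingosine 1-phosphate, gave 66.7, 33.7 and 46.6 CPM against 53.8, 38.2 and 45.4 CPM. SPHK1 overlaps PRPSAP1 on the opposite strand, which held 4611 reads against 3871. Neither EMP1 nor SPHK1 differed beyond the spread of libraries (adjusted p = 0.999 and 0.938). CD14, a myeloid receptor for lipopolysaccharide, had 4 reads in all and TGM1, a transglutaminase, had 8, and neither was tested.

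Many members were lowest in the library numbered 3 of both groups. For 17 of 33 members (51.5%) library 3 was the lowest in both groups, beside 17.7% of all genes tested. These were CHI3L1, CHI3L2, HSPB1, CP, GBP2, AMIGO2, SPHK1, CXCL8, CXCL12, IL6, IL1R1, VCAM1, NFKBIA, STAT3, C3, C1S and SERPING1. Library 3 was the highest in both groups for 2 members, beside 17.6% of all genes. A list of 5 proliferation genes (MKI67, TOP2A, CCNB1, CDK1 and BIRC5), added after seeing the data, summed to 649, 2310 and 678 CPM in Control libraries 2, 3 and 4, and to 942, 3342 and 868 CPM in ventral midbrain libraries. With the block 2 of the 5 were higher in ventral midbrain astrocytes, beside 3.63% of all genes. Libraries numbered 3 had the highest proliferation sum in both groups, and they were also the shallowest, at 11617935 and 12477947 reads. The part of either in the low level of these members was not tested, and no label says what the numbers share.

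Within same-numbered pairs, 22 of 33 members (66.7%) differed in one direction in all 3 pairs, 9 higher and 13 lower in ventral midbrain astrocytes, beside 41.5% of all genes tested. The pairs shared direction for the 12 members called with the block. That fit tests differences within numbers, so its calls favour members whose pairs agree, and this is not separate evidence. For CHI3L1 and AMIGO2 the groups overlapped while every pair was lower in ventral midbrain astrocytes.

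**Figure D4:**
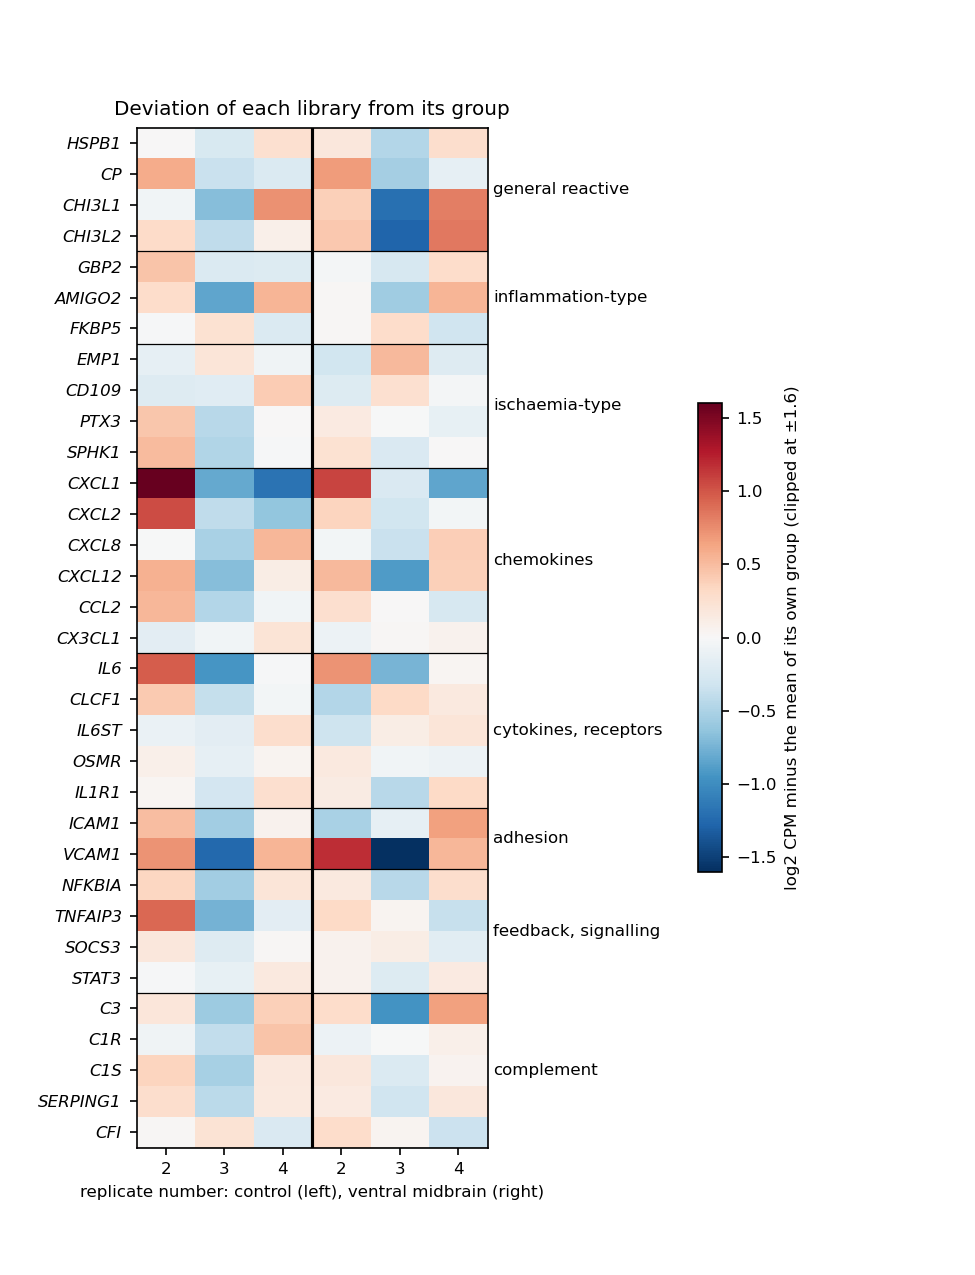
Colour map of each tested member's log2 CPM in each library minus its mean over the 3 libraries of the same group, with members in rows by role, Control libraries on the left and ventral midbrain libraries on the right. Blue is below the group mean, and library 3 is the lowest of both groups for 17 of 33 members.

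The remaining genes of these pathways were read from a list of 97, of which 74 were tested. None rose and 2 fell (2.7%), beside 2.15% of all genes in either direction (edgeR). At an unadjusted p under 0.05 there were 17 of the 74, beside 1919 of the 15984 genes. DESeq2 called 10, beside 4.69% of all genes, and limma voom 2, beside 1.64%. In this list 34 genes had a positive and 40 a negative log2 fold change. C7, a component of the membrane attack complex, stood at 9.80, 10.5 and 9.30 CPM in Control and at 2.41, 0.55 and 1.79 CPM in ventral midbrain libraries. The groups were far apart, with a log2 fold change of -2.62 ± 0.47 (adjusted p = 0.0181). S100A10, a calcium-binding family member and partner of annexin 2 that belongs to the A2 set, was lower without overlap by 0.69 ± 0.15 on the log2 scale (adjusted p = 0.045). C7 and C1R were the complement genes of both lists past the test, and both had lower levels in ventral midbrain astrocytes. The other complement genes did not all go this way. Of the 13 complement genes tested in the wider list, 6 had a positive and 7 a negative log2 fold change, beside 51.7% positive over all genes.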

How the data were processed

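RNA was measured in 6 libraries (QuantSeq 3' FWD, TRIzol extraction, polyA RNA), per the labels' protocols. The deposited transcript files hold estimated counts, TPM, transcript lengths and effective lengths made by the authors with Salmon, and the deposited series table holds normalized signal values, per the submitters' processing notes from DESeq2 1.27.12 on GRCh38.p13. Strand use in counting and the Salmon version: not given in the sources used here. Members and lists were chosen with earlier results of these data known. Estimated counts were summed per gene through GENCODE v29, which matched 205225 of 226608 transcripts (unmatched ones held 0.992% to 1.11% of reads), and rounded. Mitochondrial genes held 9.94% to 12.6% of reads. Genes passing edgeR's expression filter (15984 of 27439) were fitted in edgeR 4.0.16 (R 4.3.3) by the robust quasi-likelihood test with TMM scaling, with a common biological coefficient of variation of 0.309, Benjamini-Hochberg adjustment and a threshold of 0.05. The standard error is the absolute log2 fold change over the square root of F. Differences within pairs used log2 CPM with a prior count of 2. Figures were drawn with matplotlib 3.10.9. The fit was tested on simulated data, where it called more false genes than its nominal rate: 21 of 150 calls (14%) at the threshold of 0.05. There it recovered 38% of the 100 genes changed 2-fold and 91% of the 100 changed 4-fold. Calls near the threshold, such as those of CXCL2 and C1R, carry this limit. A member not past the test is not shown to be unchanged.

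Same-numbered libraries of the groups had correlated deviations from the group means (0.234, 0.345 and 0.204 for numbers 2, 3 and 4, against at most 0.0237 for other pairs). By a limit of 0.1 for every pair the numbers were taken to pair the libraries. Deviations in groups of 3 sum to 0, which ties the correlations together, and no label says what a number marks. Values per library are given for members called with or without the block and for the 2 most abundant tested members of each role. Wider-list genes are named where they passed the test. Promoter windows were available for 30 of 39 members. Alternatives were other scalings, filters, tests (DESeq2 1.42.0 and limma 3.58.1), a gene-length offset, log2 of the deposited values plus 1, the replicate block, left-out libraries and other thresholds. Because reads came from 3' ends, the reported fit used no length factor, and the offset is the less suited setting.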

Additional observations from a re-analysis of the deposited data

How the results depend on the processing

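Counts of calls depended on the fit more than directions did. Over all genes, 344 were called in the reported fit; 1012 without a low-count filter, 750 by DESeq2, 172 with a gene-length offset, 180 on the deposited values, 1300 with the replicate block, 102 at an adjusted p under 0.01 and 601 under 0.1. Leaving out 1 library gave 131 to 258, and leaving out a number from both groups gave 35 (number 2), 248 (number 3) and 19 (number 4). Members called higher (1 as reported) were 4 without a filter, 2 by DESeq2, 0 with the offset, 5 with the block, 0 at 0.01, and 0 to 2 with libraries left out. Members called lower (1) were 5 without a filter, 5 by DESeq2, 0 by voom, 0 with the offset, 0 on deposited values, 7 with the block, 0 at 0.01, 3 at 0.1, and 0 to 2 with libraries left out. The median log2 fold change of members (-0.002) was -0.052 with a filter of 2 CPM in 3 libraries, -0.059 by voom, -0.139 on deposited values, -0.06 with the block, and -0.236 to 0.076 with 1 library left out and -0.108 to -0.017 with a number left out of both groups (lowest without number 3).

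The sign held under all settings for 21 of 33 members. The other 12, none past the test and none with a reported log2 fold change above 0.314 in size, changed sign. EMP1 was 0.007 without a filter, 0.683 with the offset and 0.569 on deposited values. Without number 2 EMP1 was 0.067, and without number 3 OSMR was -0.003 and NFKBIA -0.015. VCAM1 was -0.156 by voom, -0.01 with the offset, -0.17 on deposited values and -0.13 with the block. SOCS3 was -0.019 with the offset and -0.019 on deposited values. The ranges with 1 library left out, and with a number left out of both groups, were CP -0.254 to 0.537 and 0.106 to 0.237, EMP1 -0.305 to 0.137 and -0.195 to 0.077, SPHK1 -0.306 to 0.191 and -0.19 to 0.05, CXCL12 -0.435 to 0.164 and -0.294 to -0.101, IL6 -0.572 to 0.474 and -0.204 to 0.043, OSMR -0.061 to 0.078 and -0.017 to 0.1, IL1R1 -0.106 to 0.251 and 0.013 to 0.116, VCAM1 -0.606 to 0.477 and -0.287 to 0.139, NFKBIA -0.204 to 0.212 and -0.034 to 0.122, SOCS3 -0.017 to 0.176 and -0.075 to 0.166, C3 -0.66 to 0.029 and -0.464 to -0.208, and CFI -0.119 to 0.203 and -0.117 to 0.162. A fit with 1 group at 2 libraries takes its spread from all genes and both groups. CXCL8 had 3 to 22 reads per library, which limits the precision of its level.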

Other observations

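With the replicate block, 5 genes of the wider list were higher in ventral midbrain astrocytes and 11 lower, out of 74 tested (21.6%), beside 3.63% higher and 4.50% lower of all genes. They are named here after their values were seen, and apart from C7 and S100A10 none passed the test without the block. The chemokine CXCL14 stood at 0.80, 3.85 and 0.76 CPM in Control libraries 2, 3 and 4 and at 8.26, 55.6 and 20.1 CPM in ventral midbrain libraries. It was higher in 3 of 3 pairs and varied widely within each group (adjusted p = 0.202, edgeR; 1.63e-06 with the block). The neutrophil chemokine CXCL5, at 1.45 ± 0.56 against 4.92 ± 1.75 CPM (SD, n = 3), had groups apart (adjusted p = 0.125; 0.0491 with the block). Receptor subunits of the gp130 family differed in direction: CNTFR, for ciliary neurotrophic factor, was at 3.92 ± 0.30 against 10.6 ± 4.07 CPM and LIFR, for leukemia inhibitory factor, at 70.7 ± 17.5 against 105.0 ± 3.19 CPM, while IL11RA was at 75.6 ± 29.8 against 41.5 ± 18.3 CPM. C4A, a complement component with the near-identical copy C4B, was the remaining higher gene and its count is uncertain.

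Lower with the block were also C6, at 4.10 ± 1.49 against 0.33 ± 0.40 CPM (SD, n = 3), and the complement regulators CD55 and CLU. So were the decoy chemokine receptor ACKR3, the interleukin 1 receptor antagonist IL1RN, TNFAIP2, and the reactive markers TIMP1 and CD44. Among the 11 reactive markers tested in the wider list, 3 had a positive and 8 a negative log2 fold change. The positive ones were GFAP (0.036), VIM (0.313) and S1PR3 (0.265), whose groups overlapped and which neither fit called. Mean CPM in Control and ventral midbrain libraries was 362.1 and 371.2 for GFAP, and 3609 and 4485 for VIM. TIMP1, an inhibitor of matrix metalloproteinases, was at 538.4 ± 104.4 against 303.4 ± 45.2 CPM (adjusted p = 0.0532; 0.00063 with the block). CLU, which encodes the abundant astrocyte protein clusterin, was at 12750 ± 5142 against 7214 ± 2534 CPM, with overlapping groups (adjusted p = 0.362; 0.0028 with the block).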
